A study of Mus musculus with 20 samples.

Results

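The 10 genes described here are immediate early genes: Fos, Fosb, Jun, Junb, Atf3, Egr1, Ier2, Nr4a1, Nr4a2 and Nr4a3. They were taken by symbol from the 21705 genes of the deposited expression table, and all 10 passed the filter on low values. Poly(A) RNA from the ventricles of male C57Bl/J6 mice was sequenced, giving 20 libraries, 5 in each of 4 groups. The control vehicle group held Acsl1flox/flox littermates, in which the gene for the main long-chain acyl-CoA synthetase of heart is flanked by recombination sites but intact. The knockout vehicle group held Acsl1H-/- mice, which lose Acsl1 in the heart after tamoxifen. The control rapamycin and knockout rapamycin groups held the same genotypes treated with rapamycin, which inhibits the growth-controlling kinase mTOR. Per the labels' protocols, mice of both genotypes were given tamoxifen at 75 mg/kg on 4 days at 6 to 8 weeks of age, all received daily injections of rapamycin at 1 mg/kg or of its vehicle for 2 weeks, and hearts were frozen 2 weeks after tamoxifen. The sources used here do not give the Cre line or the time of day at which hearts were taken. The comparisons ask what loss of fatty acid activation does to these genes soon after it occurs, and whether mTOR inhibition alters that.

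Immediate early genes are transcribed within minutes of a stimulus, without the need for new protein, through factors such as SRF with its ELK partners, CREB and MEF2 that are already on the promoter. Their messenger RNAs are short-lived, so their level in a tissue reflects very recent signalling, and in heart they are induced by stretch, adrenergic drive, ischaemia and hypertrophic stimuli as well as by the handling of the tissue. FOS, FOSB, JUN and JUNB are subunits of the AP-1 transcription factor, ATF3 is a related leucine-zipper factor induced by stress, EGR1 is a zinc-finger factor, NR4A1, NR4A2 and NR4A3 are orphan nuclear receptors, and IER2 is a small nuclear protein.

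The stretches of DNA just before the start sites are shown as a description, with a short core sequence that CREB can bind marked. Whether CREB had a part in the values of these genes was not tested. Of the 10 genes, 8 matched an entry in the RefSeq promoter table (GRCm38.p6), and Egr1 and Ier2 did not. The 250 bases before the start site are printed 5′ to 3′ on the gene's strand for 4 of these genes, with the core of the cyclic AMP response element, TGACG on either strand, in capitals.
Fos (chr12:85473640-85473889, plus strand): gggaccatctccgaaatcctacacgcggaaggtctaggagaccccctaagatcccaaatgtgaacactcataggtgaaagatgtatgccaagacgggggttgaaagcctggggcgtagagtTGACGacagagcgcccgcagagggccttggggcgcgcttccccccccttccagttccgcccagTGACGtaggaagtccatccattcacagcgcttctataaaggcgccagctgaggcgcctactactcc
Junb (chr8:84978749-84978998, minus strand): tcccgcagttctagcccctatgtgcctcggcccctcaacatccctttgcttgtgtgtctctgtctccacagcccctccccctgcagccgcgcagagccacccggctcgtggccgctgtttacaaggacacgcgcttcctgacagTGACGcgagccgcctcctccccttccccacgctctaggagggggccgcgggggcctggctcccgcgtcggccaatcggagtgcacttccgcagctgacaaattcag
Nr4a1 (chr15:101266596-101266845, plus strand): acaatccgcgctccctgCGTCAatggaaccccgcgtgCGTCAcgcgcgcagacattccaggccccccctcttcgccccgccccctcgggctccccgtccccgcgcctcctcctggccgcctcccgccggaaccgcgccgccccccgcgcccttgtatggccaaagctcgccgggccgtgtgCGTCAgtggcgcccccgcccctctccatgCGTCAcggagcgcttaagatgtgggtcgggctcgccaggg
Nr4a3 (chr4:48045055-48045304, plus strand): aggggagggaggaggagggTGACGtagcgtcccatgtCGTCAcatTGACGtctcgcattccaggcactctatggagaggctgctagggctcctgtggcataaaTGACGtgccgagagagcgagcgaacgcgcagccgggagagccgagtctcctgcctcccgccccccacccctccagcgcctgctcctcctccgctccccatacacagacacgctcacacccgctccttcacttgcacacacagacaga

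The core TGACG was present in 7 of the 8 promoter windows, against 17.8% of all 32851 windows of the same length, and Jun was the exception. The windows of Nr4a1, Nr4a2 and Nr4a3 held 4 copies each, that of Fos held 2, and those of Fosb, Junb and Atf3 held 1 each. In Fos the copy nearest the start site began 66 bases before it. This short core was chosen after the sequences were seen. GC content was 58.4% to 80% in the 8 windows, against a median of 52.4% in all windows, and its part in the count was not tested. The full palindrome TGACGTCA (1.55% of all windows), the AP-1 site TGANTCA (6.75%), the SRF CArG box (1.47%) and the NR4A monomer site AAAGGTCA (1.34%) were in none of the 8 windows, on either strand. Sites farther than 250 bases upstream, or near Egr1 and Ier2, were not sought, so these promoters may still hold such sites.

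Values are expression estimates that the authors scaled so that each library has an upper quartile near 1000, and the step between low values implied 11.5 to 21.1 M reads per library (median 15.2 M). Acsl1 checked the labels: it lay between 6373 and 16661 in the 10 control libraries and between 631 and 1950 in the 10 knockout libraries. Ventricular markers were abundant in all libraries, with Myl2, the ventricular light chain, between 204684 and 681946. On the first principal component (33.7% of the variance), 2 libraries lay far from the rest: control vehicle 1 scored 73.4 and control vehicle 3 scored 84.6, where the remaining 18 lay between -41.7 and 19.3. In bulk tissue, fewer cells of a type and less RNA per cell cannot be told apart. Replicates are biological per the design text, with 5 per group, and p-values measure the spread between these libraries.

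None of the 10 genes passed the adjusted threshold of 0.05 in any comparison (limma over 13548 genes, Benjamini-Hochberg adjustment). Changes below are fitted on the log2(value + 1) scale, which understates the change of low genes such as Fosb and Nr4a2. In knockout against control hearts under vehicle, 0.244% of all tested genes were called and 31.8% had an unadjusted p under 0.05, against 4 of the 10 members. Under rapamycin, knockout against control gave 0.0221% and 2.97% (1 member), rapamycin against vehicle gave 0% and 14.9% in control hearts (1 member), and in knockout hearts 0.00738% and 5.71% (2 members). The interaction (the knockout effect under rapamycin minus that under vehicle) gave 0% and 8.3% (2 members). With 10 genes these counts are too small to set against the shares of all tested genes, and are no result about the members. The count of genes called in the first comparison, 33, depended on single libraries and was 3090 without control vehicle library 5 and 2569 without knockout vehicle library 5.

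**Figure D1:**
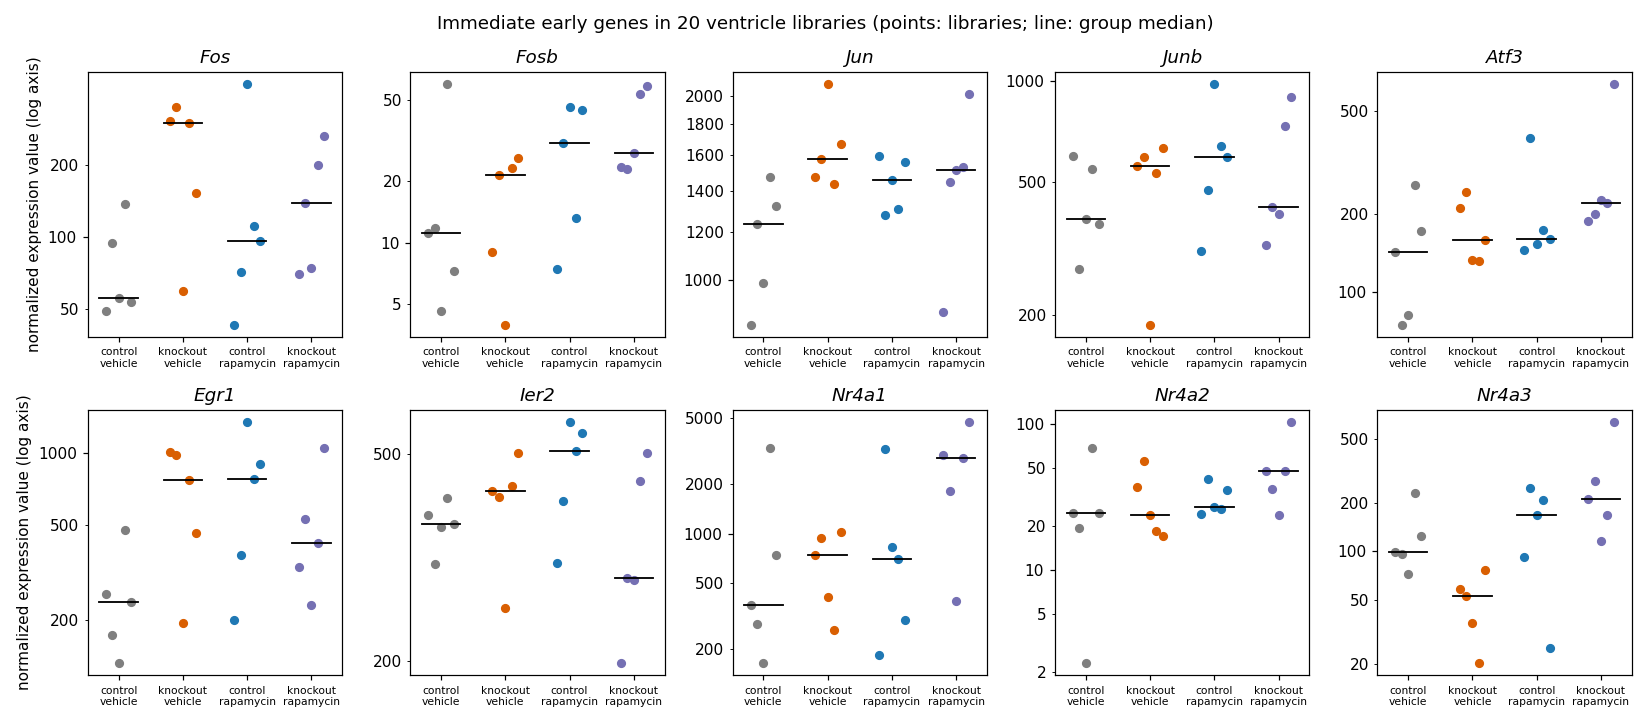
Normalized expression value of each gene (y axis, log scale, a separate range per panel) in the 4 groups (x axis); points are single libraries in replicate order and bars are group medians. Nr4a3 lay between 20.2 and 76.1 in knockout vehicle hearts and between 115 and 632 in knockout rapamycin hearts, while the groups overlapped for every other gene in that comparison.

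Among the AP-1 genes, Fos had values of 49.1, 94.2, 55.7, 137 and 53.7 in the 5 control vehicle libraries. In knockout vehicle libraries 1 to 5 it was at 305, 350, 59.6, 301 and 152. Thus 4 of 5 knockout libraries were above every control, and knockout library 3 lay among the controls. The knockout mean was 3.00 times the control mean (234 ± 122 against 77.95 ± 37.7, SD, n = 5 each), with a log2 change of 1.44 (SE 0.56, 95% interval 0.28 to 2.60, adjusted p = 0.111 by limma). Without control vehicle libraries 1 and 3, the outlying pair, the log2 change was 1.14, the lowest of 32 settings of the fit. Across these settings the highest adjusted p was 0.773 (limma). Within the 4 sequencing pools the difference was 1.88, 1.88, 0.77 and 2.47. Under rapamycin the genotypes could not be separated for Fos: control libraries had 43.0, 71.4, 437, 112 and 96.1, and knockout libraries 70.2, 139, 73.9, 199 and 265. Their means were 152 and 149, with a log2 change of 0.28 (95% interval -0.88 to 1.44), and the within-pool differences had both signs, from -2.55 to 1.67. The interaction for Fos was -1.16 (95% interval -2.80 to 0.47, adjusted p = 0.538), so a difference between the arms was not shown.

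Jun, the main partner of FOS, varied least of the 10. It lay between 846 and 1471 in control vehicle, 1433 and 2089 in knockout vehicle, 1277 and 1596 in control rapamycin and 887 and 2011 in knockout rapamycin libraries. The vehicle groups overlapped in a narrow range only. The means were 1173 ± 253 and 1648 ± 263 (SD, n = 5 each), with a log2 change of 0.51 (SE 0.18, adjusted p = 0.104 by limma). All 4 within-pool differences were positive, from 0.11 to 0.92. The only overlap was between libraries of different pools, so these signs were fixed in advance and add no support. The 2 lowest control values, 846 and 988, were libraries 1 and 3, the outlying pair of the principal component analysis. Without both the change was 0.29 (adjusted p = 0.799), and without control vehicle library 5 it was 0.56 and passed the threshold (adjusted p = 0.0451), in a fit that called 3090 of 13528 tested genes, so that 1 of 10 members is no result about them. Under rapamycin the log2 change of Jun between genotypes was -0.00 (95% interval -0.38 to 0.37).

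Junb, which forms AP-1 dimers that often counter JUN, had means of 436 ± 132 in control vehicle, 501 ± 179 in knockout vehicle, 600 ± 249 in control rapamycin and 555 ± 246 in knockout rapamycin libraries (SD, n = 5 each). No order of the groups was larger than this spread, and the log2 changes in the 4 simple comparisons lay between -0.12 and 0.41. Fosb was the scarcest AP-1 gene, with 2.00 to 51.0 implied reads per library. Its 95% interval for the knockout effect under vehicle ran from -1.14 to 1.42, and its mean was lower in knockout libraries (16.7 against 18.9) while its log2 change was 0.14. Rapamycin against vehicle in knockout hearts gave Fosb values of 23.0 to 58.0 against 3.98 to 26.0, with a log2 change of 1.24 (95% interval -0.04 to 2.52, adjusted p = 0.882 by limma). Atf3 was at 146 ± 75.5, 176 ± 49.9, 206 ± 106 and 295 ± 193 in control vehicle, knockout vehicle, control rapamycin and knockout rapamycin libraries. Its highest group owed its mean to knockout rapamycin library 5, at 639, where the other 4 libraries lay between 189 and 227.

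Egr1, whose protein binds GC-rich promoters and induces the NAB feedback repressors, resembled Fos in the knockout effect under vehicle. Control vehicle libraries 1 to 5 had 257, 173, 132, 478 and 238, and knockout vehicle libraries had 1010, 979, 195, 768 and 462. As with Fos, knockout vehicle library 3 lay among the controls, and 3 knockout libraries were above every control. The means were 256 ± 134 and 683 ± 350 (SD, n = 5 each), with a log2 change of 1.33 (SE 0.52, 95% interval 0.25 to 2.42, adjusted p = 0.112 by limma) and within-pool differences of 1.18 to 2.497. In hearts that keep Acsl1, rapamycin libraries had 200, 372, 1346, 777 and 899, so that 3 of 5 were above every vehicle control. That log2 change was 1.34 (SE 0.52, adjusted p = 0.328 by limma), and the within-pool differences had both signs, from -0.81 to 3.34. This comparison and the knockout comparison share the control vehicle libraries, whose Egr1 mean was the lowest of the 4 groups. Without control vehicle libraries 1 and 3, the log2 change of Egr1 was 1.11 in the knockout comparison and 1.12 in the rapamycin comparison. Knockout rapamycin libraries had Egr1 values of 232 to 1051 (median 421). The interaction for Egr1 was -1.72 (95% interval -3.26 to -0.19, unadjusted p = 0.0299, adjusted p = 0.523 by limma).

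Ier2, a growth-factor-induced gene whose protein acts in the nucleus, had means of 366 ± 37.7, 405 ± 92.1, 469 ± 110 and 344 ± 125 in control vehicle, knockout vehicle, control rapamycin and knockout rapamycin libraries (SD, n = 5 each). Its log2 change between genotypes was 0.12 under vehicle and -0.49 under rapamycin (95% interval -0.97 to -0.01, adjusted p = 1.00 by limma). All 4 groups overlapped.

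**Figure D2:**
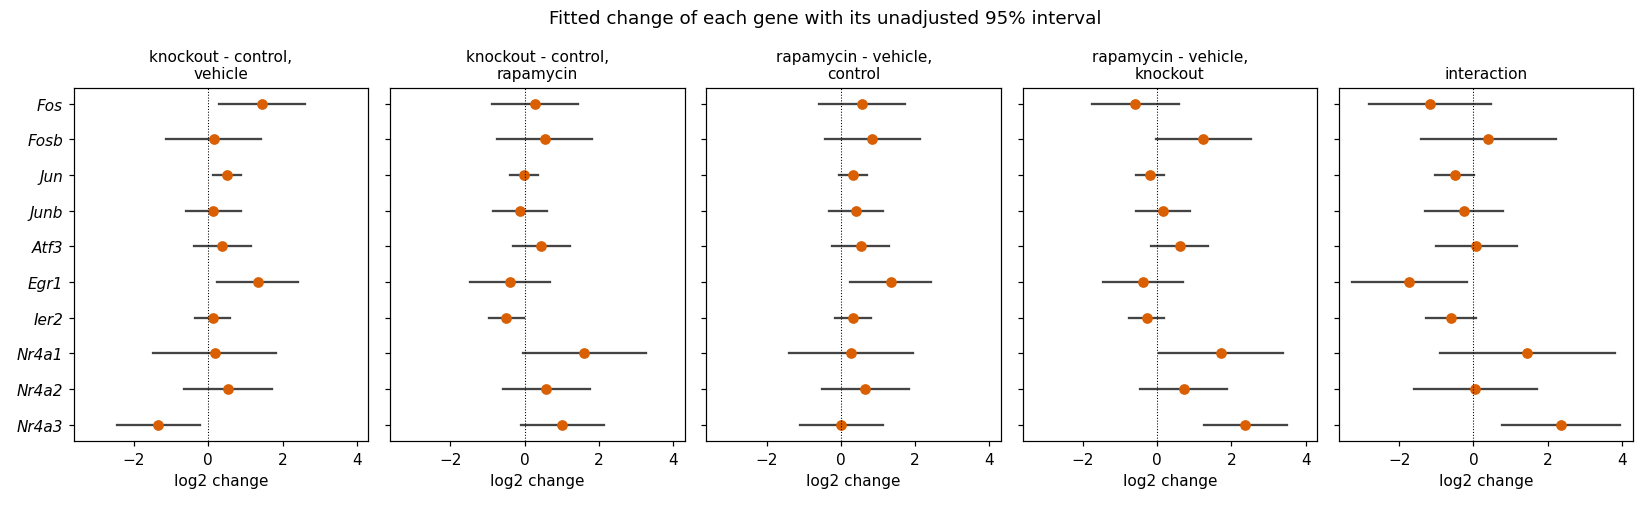
Fitted log2 change (x axis) of each of the 10 genes (y axis) in the 5 comparisons; points are estimates and bars are 95% intervals from limma, not adjusted for the number of genes. The interval of Nr4a3 for rapamycin against vehicle in knockout hearts runs from 1.25 to 3.49, and most other intervals cross 0.

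Nr4a3, a nuclear receptor induced by adrenergic signalling in muscle, showed the largest fitted change of the 10 genes. Knockout vehicle libraries 1 to 5 had 58.4, 52.8, 35.8, 20.2 and 76.1, and knockout rapamycin libraries had 211, 273, 115, 167 and 632. These groups did not overlap, as was true, in this direction, for 0.62% of all tested genes. The means were 48.7 ± 21.5 and 279 ± 205 (SD, n = 5 each), a ratio of 5.74, and the log2 change was 2.37 (SE 0.54, 95% interval 1.25 to 3.49). The unadjusted p was 0.000264 and the adjusted p 0.159 (limma), so the gene was not called. The within-pool differences were 2.20, 1.98, 1.12 and 3.94, and with 1 library left out the log2 change stayed between 2.01 and 2.63. Because the groups did not overlap, the positive sign of all these values was fixed in advance and adds no support. A fit with array weights and robust empirical Bayes gave 2.42 and called it, as 1 of 58 genes called in that fit, with an adjusted p of 0.0481, the lowest of its settings (highest 0.465).

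In hearts that keep Acsl1, Nr4a3 was at 98.2, 96.1, 71.9, 230 and 123 under vehicle and at 91.6, 245, 168, 206 and 24.9 under rapamycin. The log2 change there was 0.01 (95% interval -1.11 to 1.13), and the groups overlapped over most of their range. Under vehicle the knockout mean was the lower, 48.7 against 124 ± 61.8, with a log2 change of -1.34 (SE 0.54, adjusted p = 0.116 by limma) and negative differences in all 4 pools (-0.45 to -2.55). Only the highest knockout library, at 76.1, exceeded the lowest control, at 71.9. With so little overlap, the shared sign of the pools was largely fixed in advance and adds little support. The interaction was 2.36 (95% interval 0.78 to 3.95, unadjusted p = 0.00546, adjusted p = 0.523 by limma). In order of their means the groups were knockout vehicle, control vehicle, control rapamycin and knockout rapamycin, and the middle pair did not differ beyond its spread.

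Nr4a1, which encodes NUR77, had the largest spread within groups. Control vehicle libraries had 371, 282, 165, 3323 and 747, and knockout vehicle libraries had 747, 940, 414, 262 and 1019. A lone control library held most of the control signal: the mean was lower in knockout libraries (676 against 978), while the log2 change was 0.17 (95% interval -1.50 to 1.84). Control rapamycin libraries had 185, 3271, 834, 703 and 301, and knockout rapamycin libraries had 3008, 1816, 390, 2863 and 4734. Thus 4 of 5 knockout rapamycin libraries were above every knockout vehicle library. That log2 change was 1.71 (SE 0.80, 95% interval 0.04 to 3.37, adjusted p = 0.842 by limma), but it was -0.73 within pool 3 and 1.28 to 3.81 in the other pools. Nr4a2, which encodes NURR1, was scarce, with 1.00 to 91.0 implied reads per library. Its group means ran from 27.9 to 51.9, all 4 groups overlapped, and its 95% intervals were wide, from -0.59 to 1.76 for knockout against control under rapamycin.

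Beside these comparisons, the summed levels of markers of other cells differed between the vehicle groups. The summed level of 5 fibroblast markers was 18694 to 22962 in control and 24543 to 45363 in knockout vehicle libraries. For 4 erythroid genes it was 60591 to 155063 and 13533 to 46552, and for 4 atrial genes 1358 to 6054 and 4141 to 61871. Of the erythroid genes, 2 were called lower in knockout vehicle libraries, and no fibroblast or atrial marker was called there. How often sums of other genes differ this much was not computed. Dcn made up most of the fibroblast sum, with means of 15915 in control and 22389 in knockout vehicle libraries. Col1a1 overlapped between these groups (1004 to 3161 and 744 to 5894). Nppa made up most of the atrial sum in control vehicle libraries, with a mean of 3003 against 89.0 for Myl7. Myl7 alone lay between 7.85 and 356 in control and between 3.98 and 9549 in knockout vehicle libraries. In knockout rapamycin libraries fibroblast markers lay between 28252 and 45178, erythroid genes between 29692 and 104570, and atrial genes between 8103 and 57803, ranges that overlapped those of knockout vehicle libraries. In that comparison, the one with the largest change of Nr4a3, no marker was called, but the log2 changes of all 4 erythroid genes were positive (median 0.77, 2 with an unadjusted p under 0.05). Those of all 4 macrophage markers were negative (median -0.31, 2 with an unadjusted p under 0.05), as were those of all 4 atrial genes (median -1.13). The sums of 4 endothelial and 4 macrophage markers in those groups were 14312 to 19686 and 2632 to 4074 under vehicle, and 15471 to 24534 and 1966 to 3288 under rapamycin. The sums of 4 smooth muscle and pericyte markers and of 2 neutrophil genes overlapped among all 4 groups, and S100a8, a neutrophil gene, was at 0 in 1 library. Of 11 genes of handling and heat stress, none was called, and Hsph1, a heat shock co-chaperone, came nearest, with means of 898 ± 433 and 1737 ± 251 in the control and knockout vehicle groups (a log2 change of 1.07, limma adjusted p = 0.0741). Of 13 clock genes, none was called in any comparison. Within groups, however, some genes of both lists ranged widely. In control vehicle libraries the clock genes Arntl and Dbp lay between 60.8 and 721 and between 398 and 3607. The clock gene Nr1d2 there lay between 2763 and 4065. Fkbp5, of the handling list, lay between 521 and 4312 in knockout vehicle libraries. The part of these markers and genes in the values or spread of the immediate early genes was not tested.

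The spread within groups was itself large. For the 10 genes the within-group SD on the log2 scale ran from 0.30 for Jun to 1.41 for Nr4a1, against a median of 0.31 over the 13548 tested genes. Nr4a1 ranked 113th from the top among those genes, and 6 of the 10 (Nr4a1, Fosb, Fos, Nr4a2, Nr4a3 and Egr1) lay above the 95th percentile. Atf3 and Junb were at the 88.4th and 87.3th percentiles, Ier2 at the 64.9th and Jun at the 47.5th. SDs of low genes include counting error, which weighs on Fosb and Nr4a2. Nr4a1, with a lowest value of 71.0 implied reads, ran over a 28.7-fold range across the 20 libraries and Nr4a3 over a 31.3-fold range.

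**Figure D3:**
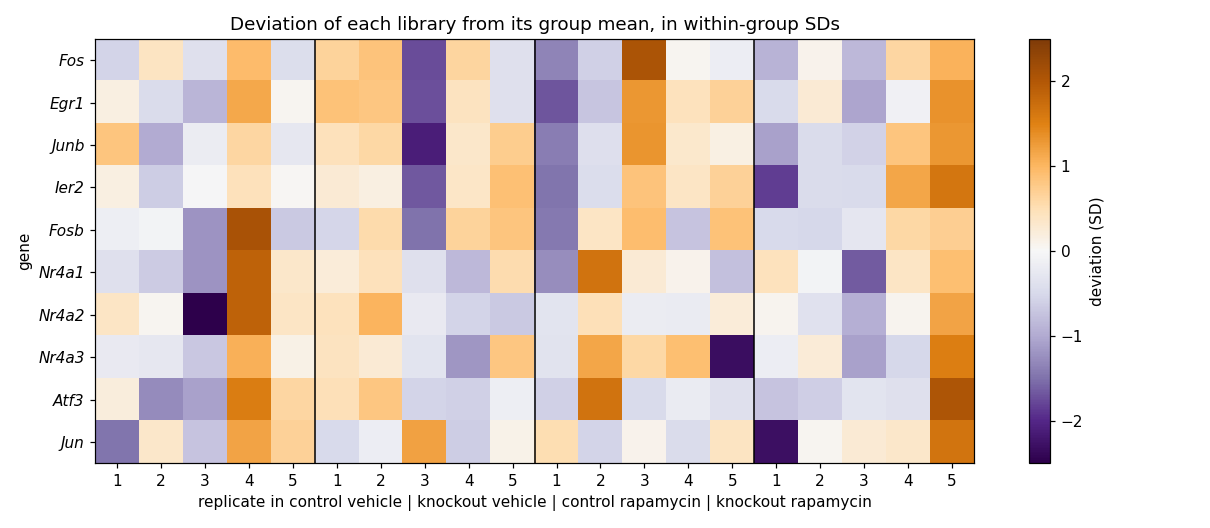
Deviation of each library from its group mean on the log2(value + 1) scale, divided by the within-group SD of the gene (colour), for the 10 genes (y axis) in the 5 libraries of each group (x axis). Knockout vehicle library 3 and control rapamycin library 1 are low in the upper 5 genes, and control vehicle library 4 and knockout rapamycin library 5 are high in nearly all.

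The high and low libraries were shared between genes. Of the 10 genes, 4 (Fos, Junb, Egr1 and Ier2) had their highest value in control rapamycin library 3, and another 4 (Nr4a1, Nr4a2, Nr4a3 and Atf3) in knockout rapamycin library 5. Control vehicle library 3, of the outlying pair, held the lowest value of Egr1, Nr4a1 and Nr4a2. Control vehicle library 4 was high in both kinds, with Nr4a1 at 3323, Fos at 137 and Atf3 at 259, each the highest of its group. Control rapamycin library 2 was high in Nr4a1 (3271) and Atf3 (395) while its Fos value, 71.4, was below the median of its group. Depth differed among these libraries. Control rapamycin 3 and knockout rapamycin 5 had 21.1 and 20.3 M implied reads, and control vehicle 3 had 11.8 M. Control vehicle 4 and control rapamycin 2 had 15.9 and 14.6 M, and knockout vehicle 2, with 20.2 M, held no highest value. The part of depth in these shared values was not tested.

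These shared deviations were measured as correlations over the 20 libraries after the group means were removed, for all 45 pairs of the 10 genes. All 45 Pearson coefficients were positive, and 17 pairs passed a threshold of 0.05 with both Pearson's r and Spearman's rho (100000 permutations within groups, two-sided, adjusted over the 45 pairs). Points share a library, and with it depth, RNA quality and tissue makeup. The share of all gene pairs that would pass was not computed, so the count is no result particular to the members. Ranks among all tested genes differed widely between passing pairs. By closeness to Nr4a2, Nr4a3 ranked 3011th, and by closeness to Egr1, Fosb ranked 651st. Junb and Ier2, both on chromosome 8, had the closest relation (r = 0.92, rho = 0.91, permutation p = 1e-05 for each, the smallest the permutations can give, adjusted p = 0.00045). Each was the nearest neighbour of the other among all other tested genes. Without the 2 libraries farthest from the median of Junb the coefficient was 0.89, and with the pool means also removed it was 0.94. Below, the 2 farthest libraries are likewise chosen by 1 gene of a pair, not by both.

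Fos and Egr1 had r = 0.87 and rho = 0.87 (permutation p = 5e-05 and 4e-05, adjusted p = 0.00112 and 0.0009). The coefficient was 0.82 without the 2 farthest libraries and 0.87 with pool means removed. Nr4a1 and Nr4a3 had r = 0.76 and rho = 0.81 (permutation p = 0.00031 and 7e-05, adjusted p = 0.00349 and 0.00105), with 0.73 without the 2 farthest libraries and 0.79 with pool means removed. Nr4a1 was the nearest of all tested genes to Nr4a3. Nr4a1 and Atf3 had r = 0.74 and rho = 0.66 (permutation p = 0.0015 and 0.00453, adjusted p = 0.00562 and 0.0157), with 0.74 without the 2 farthest libraries.

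Read from these coefficients, the genes fell into 2 sets, described here after they were seen and with no test. Among Fos, Fosb, Junb, Egr1 and Ier2 the 10 coefficients ran from 0.66 to 0.92, and among Nr4a1, Nr4a2, Nr4a3 and Atf3 the 6 coefficients ran from 0.44 to 0.76. Between the sets the 20 coefficients ran from 0.20 to 0.56. Without control vehicle libraries 1 and 3 the ranges were 0.66 to 0.94, 0.45 to 0.76 and 0.15 to 0.54. With the 2 libraries farthest in 1 gene of each pair left out, the lowest coefficient among the Nr4a genes and Atf3 was 0.37. The highest between the sets was 0.62, so the ranges overlapped. With pool means removed, Fosb had 0.60 to Nr4a2 and 0.59 to Nr4a1, above the 0.51 between Nr4a2 and Nr4a3. Coefficients of Jun to the other 9 genes ran from 0.03 to 0.32, and up to 0.51 without the 2 farthest libraries. With pool means removed, Jun had 0.55 to Nr4a2, 0.40 to Nr4a3, 0.39 to Atf3 and -0.12 to Junb. The sets and the place of Jun thus depended on the setting.

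**Figure D4:**
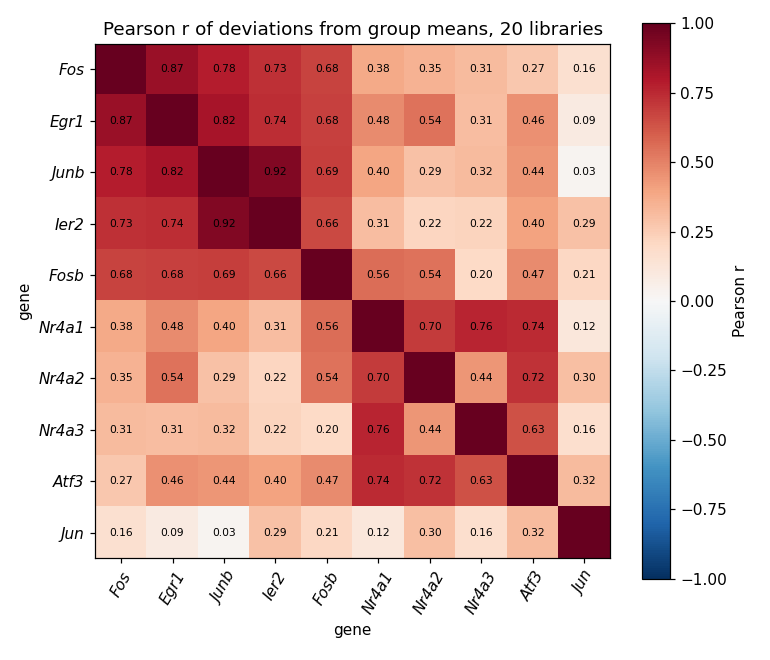
Pearson's r (colour and number) between each pair of the 10 genes (both axes), over 20 libraries after group means were removed from log2(value + 1). The block of Fos, Egr1, Junb, Ier2 and Fosb holds 0.66 to 0.92, and the row of Jun holds 0.03 to 0.32.

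**Figure D5:**
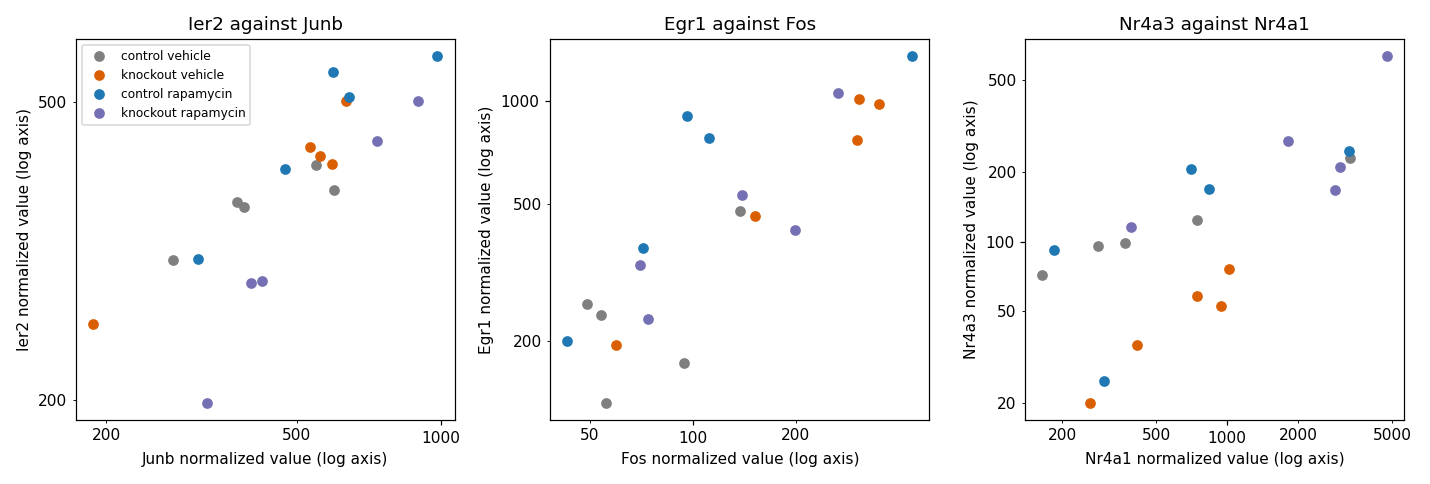
Normalized values (both axes log scale) of Ier2 against Junb, Egr1 against Fos and Nr4a3 against Nr4a1, where each point is a library and colours mark the 4 groups. For Nr4a3 the 5 knockout vehicle points lie at or below 76.1, with a control rapamycin library (24.9) and a control vehicle library (71.9) as the only others that low.

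Outside the 10 genes, the 5 tested genes most like them by mean Pearson coefficient to the 10, over the same deviations in 20 libraries, were Sema3f (0.66), Hlx (0.64), Cap1 (0.63), Gimap5 (0.63) and Dusp3 (0.62). Sema3f encodes a secreted semaphorin, Hlx a homeobox factor, Cap1 an actin regulator, Gimap5 a small GTPase and Dusp3 a phosphatase of MAP kinases. They were the highest of 13538 genes, and no test was made of them.

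A wider list of 50 other immediate early genes had 47 tested members, and none was called in any of the 5 comparisons. Its median log2 change was 0.03 in knockout against control under vehicle (all tested genes 0.07), -0.01 under rapamycin (-0.02), 0.06 for rapamycin in control hearts (0.07), 0.07 for rapamycin in knockout hearts (-0.02) and -0.03 for the interaction (-0.09). The medians of the 10 genes were 0.27, 0.37, 0.47, 0.38 and -0.10 in the same order. The 10 genes were chosen with earlier results of these data known, and 6 of them lay above the 95th percentile of within-group spread. The difference between the lists was not tested. In knockout vehicle hearts the smallest p-values on the wider list belonged to Nfkbiz, an atypical inhibitor of NF-kappaB signalling, with means of 25.1 ± 16.9 and 71.4 ± 44.0 in the control and knockout groups (a log2 change of 1.46, limma adjusted p = 0.09996). Rhob, a small GTPase, had a log2 change of -0.46 and Gadd45g, a growth-arrest gene, 0.90.

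In knockout hearts rapamycin against vehicle gave the smallest p-values to Rgs2, which damps G-protein signals (log2 change 0.55), Dusp5, a nuclear phosphatase of ERK (0.92), and Rhob (0.38). Dusp5 was at 53.5 ± 20.7 under vehicle and 94.6 ± 7.73 under rapamycin (adjusted p = 0.533 by limma). For knockout against control under rapamycin they were Errfi1 (0.48), Trib1 (-0.36) and Dusp5 (0.64), for rapamycin in control hearts Gadd45g (0.82), Arc (0.59) and Ier5 (0.41), and for the interaction Klf2 (0.89), Rhob (0.56) and Gadd45g (-1.25). None of these was called.

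For 6 feedback and target genes of the same response the group means were as follows. Dusp1, a phosphatase that ends MAP kinase signals, had group means of 1757 to 2146, Zfp36, which destabilizes early messenger RNAs, 1083 to 1193, and Btg2, an anti-proliferative gene, 1146 to 1224. Nab2, the EGR1-induced repressor, had means of 201 to 209, Hbegf, a growth factor of the EGF family, 449 to 520, and Myc 127 to 212. Nab2 thus differed by less than its within-group SDs (32.9 to 71.4). The Egr1 means ran from 256 to 719, with within-group SDs of 134 to 452. Neither gene was called in any comparison, and a relation between them was not tested.

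Of 32 upstream kinases and factors, all were tested and none was called. Their median log2 change was 0.17 in knockout against control under vehicle (all tested genes 0.07) and 0.01 under rapamycin (-0.02). It was 0.15 for rapamycin in control hearts (0.07), 0.04 for rapamycin in knockout hearts (-0.02) and -0.13 for the interaction (-0.09). The difference from all tested genes was not tested. Under vehicle the smallest p-values belonged to Mapk3, which encodes ERK1 (log2 change -0.39), Atf1, a CREB relative (0.40), and Rps6ka3, an ERK-activated kinase (0.48). Those for rapamycin in control hearts were Atf1 (0.41), the CREB coactivator Crtc1 (0.37) and the SRF partner Elk4 (0.47), and those for rapamycin in knockout hearts Camk2d (-0.21), Hdac5 (0.21) and Mapk3 (0.27). Mef2a (0.31), Elk1 (-0.32) and Elk4 (-0.23) came first for the knockout effect under rapamycin, and Elk4 (-0.56), Crtc1 (-0.44) and Rps6ka3 (-0.49) for the interaction. Transcript levels of these factors do not report their activity, which is set largely by phosphorylation.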

How the data were processed

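The 20 libraries were sequenced in 4 pools, each with at least 1 library of every group. The submitters' processing notes name the build mm9 and the tools RSEM, SAMtools and Picard 1.64; no aligner is stated. The unit is a normalized signal per gene: RSEM estimates that the authors scaled to an upper quartile of 996.6 to 1000 per library (values above 0). Of low values, 86.6% to 88.5% were whole multiples of a library's step within 0.05 reads, too few to recover reads. A gene was tested when at least 10 in at least 5 libraries. For the tests, limma 3.58.1 (R 4.3.3) modelled log2(value + 1) by a mean per group with an intensity trend over all 20 libraries; Benjamini-Hochberg adjustment covered all 13548 genes at 0.05. The script was tested on simulated data. Groups came from sample titles. The 10 genes and all lists were chosen with earlier results of these data known. The genes named are the 10, 6 fixed feedback and target genes, and the 3 smallest p-values per list and comparison. Replicate numbers did not pair the libraries (sensitivity part). Figures used Python 3.11.15, and motifs were sought on both strands.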

Additional observations from a re-analysis of the deposited data

Results flagged for a closer look

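In 40 groups of 5 libraries (10 genes in 4 groups), 4 had a library whose gap to its nearest neighbour exceeded 0.71 of the group's log2 range, Dixon's 95% critical value, and chance alone flags about 1 in 20 groups. Knockout vehicle library 3 was low for Junb (187, gap 0.86 of the range) and for Ier2 (252, gap 0.72). Control rapamycin library 2 was high for Atf3 (395, gap 0.83), and knockout rapamycin library 5 was high for Atf3 (639, gap 0.85). These libraries also lay at the edge of their groups in other members. No interaction passed the adjusted threshold.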

How the results depend on the processing

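Under the other settings, the number of the 10 genes called stayed at 0 in each comparison, with 2 exceptions of 1 gene each: Nr4a3 for rapamycin in knockout hearts with robust empirical Bayes and array weights (1 called), and Jun for the knockout effect under vehicle without control vehicle library 5 (leaving out single libraries gave 0 to 1 called). Of 540 fitted changes under the other settings 21 reversed, and of 1000 with 1 library left out 41 reversed, all of them among changes that were not called; the cause was not tested. With quantile normalization the knockout effect under vehicle was -0.14 for Fosb and -0.0045 for Ier2, that under rapamycin 0.019 for Jun, and the rapamycin effect in control hearts -0.16 for Nr4a3. Robust empirical Bayes with array weights gave -0.37 for Fosb and -0.58 for Nr4a1 (knockout, vehicle), -0.38 for Fos (knockout, rapamycin), -0.44 for Nr4a1 and -0.39 for Nr4a3 (rapamycin, control), and -0.099 for Junb (rapamycin, knockout). Without control vehicle libraries 1 and 3 it was -0.32 for Fosb, -0.57 for Nr4a1 and -0.21 for Nr4a2 (knockout, vehicle), and -0.47 for Nr4a1, -0.082 for Nr4a2 and -0.28 for Nr4a3 (rapamycin, control). Median-ratio rescaling gave 0.00617 for Jun (knockout, rapamycin) and -0.0458 for Nr4a3 (rapamycin, control). Pool as a covariate gave -0.021 for Nr4a3 (rapamycin, control), and interactions of -0.043 for Atf3 and -0.21 for Nr4a2. Leaving out single libraries, the knockout effect under vehicle ran from -0.17 to 0.69 for Fosb, -0.017 to 0.46 for Junb, -0.25 to 0.83 for Nr4a1 and -0.11 to 0.98 for Nr4a2. Under rapamycin it ran from -0.050 to 0.78 for Fos, -0.33 to 0.082 for Junb and -0.13 to 0.17 for Jun. The rapamycin effect ran from -0.33 to 0.92 for Nr4a1 and -0.26 to 0.55 for Nr4a3 in control hearts, and from -0.17 to 0.32 for Junb in knockout hearts. Interactions ran from -0.24 to 0.34 for Atf3, -0.14 to 0.71 for Fosb and -0.40 to 0.70 for Nr4a2. Same-numbered libraries did not deviate together (30 pairs, correlation -0.51 to 0.43, 10 above 0.1), so the numbers do not pair them, and with a replicate block 0 members were called in each comparison. Genes called for the knockout effect under vehicle, 33 in all, numbered 49 with the block, 56 with pool as a covariate, 12 with array weights, 3 with only the groups compared, 4 without control vehicle libraries 1 and 3, and 8 to 3090 with 1 library left out. For rapamycin in knockout hearts array weights gave 58 in place of 1, and for the knockout effect under rapamycin 14 in place of 3. Requiring a mean value of 100 or more dropped Fosb and Nr4a2. Depth limits Fosb and Nr4a2 most, whose lowest libraries hold 2.00 and 1.00 implied reads.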
